A study of Mus musculus with 5 samples.

Results

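Krt7, Krt8, Krt18, Krt19 and Epcam were followed through 5 single-cell RNA-seq libraries of the mouse submandibular salivary gland. They were chosen by name as the simple epithelial keratins and the epithelial cell adhesion molecule, and all 5 were found among the 30406 genes that the gene lists of the libraries had in common. Each library was 1 group, taken from the labels. All animals were C57BL/6. Untreated 7-day salivary gland organoids (mSGOs, the control), 7-day mSGOs given 7 Gy of photons on day 5 and 7-day mSGOs given 7 Gy of plateau protons on day 5 were grown in Matrigel in WRY medium, which holds Wnt3a- and R-spondin1-conditioned media, from the glands of 4 animals aged 8 to 12 weeks, with no label that separates the animals within a library, and were collected on the same day. Untreated 11-day mSGOs were made from other animals, with no age label, and went through a separate run. The fresh gland, also untreated, came from animals aged 8 to 12 weeks. In every group 45000 cells that excluded propidium iodide were sorted and loaded. The comparisons ask how irradiation, time in culture and growth as organoids relate to the level of these genes.

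Keratins are the intermediate filament proteins of epithelia and assemble only as pairs of a type II and a type I chain. In the simple epithelium that lines gland ducts the pairs are built from the type II chains Krt8 and Krt7 with the type I chains Krt18 and Krt19, while basal cells use Krt5 with Krt14. In salivary glands these simple keratins are used as markers of luminal duct cells, and Epcam, a cell adhesion molecule of the lateral membrane, is used as a general epithelial marker.

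In RefSeq (assembly GRCm38.p6) Krt7 lies at chr15:101412403-101427806, Krt8 at chr15:101996711-102004342 and Krt18 at chr15:102028216-102032026, so that Krt8 and its partner Krt18 are 23873 bp apart, with 0 other keratin genes between them, whereas Krt7 and Krt8 are 568904 bp apart with 23 keratin genes between. Krt19 lies at chr11:100140810-100145926 and Epcam at chr17:87635979-87651127. The promoters of the 3 genes on chromosome 15 are shown because Krt8 and Krt18 were both lower after irradiation and Krt7 was higher. Each runs 5′ to 3′ on the gene's strand, from 250 bases before to 50 bases after the annotated start, in RefSeq's GRCm38.p6 table, which matched 4 of the 5 genes. The windows are chr15:101412153-101412452 (plus strand) for Krt7, chr15:102004293-102004592 (minus strand) for Krt8 and chr15:102027966-102028265 (plus strand) for Krt18. Capitals mark matches, on either strand, to 6 motifs. These are the TATA box, searched as TATAAA, and the GC box of Sp1 family factors, searched as GGGCGG. Of the others, CCAAT stands for the box bound by the factor NF-Y, and the sequence bound by the factor AP-1 was searched as TGANTCA. The form CACCTG was searched as an E-box of zinc finger repressors, and for the factor Rbpj the core searched was TGGGAA.
Krt7: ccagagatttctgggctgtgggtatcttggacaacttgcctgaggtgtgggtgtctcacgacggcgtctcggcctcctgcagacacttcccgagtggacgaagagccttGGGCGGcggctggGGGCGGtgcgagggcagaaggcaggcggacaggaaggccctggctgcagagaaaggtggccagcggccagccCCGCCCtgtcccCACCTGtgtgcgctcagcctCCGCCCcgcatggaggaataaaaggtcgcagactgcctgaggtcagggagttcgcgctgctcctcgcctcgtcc
Krt8: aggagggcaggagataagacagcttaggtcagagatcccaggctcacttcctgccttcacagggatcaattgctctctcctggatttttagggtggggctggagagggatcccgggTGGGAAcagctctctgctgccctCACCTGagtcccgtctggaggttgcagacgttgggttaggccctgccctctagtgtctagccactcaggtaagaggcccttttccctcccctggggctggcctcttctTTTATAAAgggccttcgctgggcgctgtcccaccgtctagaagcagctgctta
Krt18: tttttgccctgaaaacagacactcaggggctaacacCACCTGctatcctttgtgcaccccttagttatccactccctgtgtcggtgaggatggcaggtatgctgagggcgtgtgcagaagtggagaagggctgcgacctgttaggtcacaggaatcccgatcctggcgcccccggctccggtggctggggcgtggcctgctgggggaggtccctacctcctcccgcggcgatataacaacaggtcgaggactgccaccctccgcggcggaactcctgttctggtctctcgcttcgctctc

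The Krt7 promoter held 4 GGGCGG matches, a motif present in 35.7% of the 32851 promoters of the table, and the other 2 held 0. Only the Krt8 promoter held TATAAA, which is in 13.6% of all promoters, as 2 matches on opposite strands that overlap at the annotated start. All 3 held 1 CACCTG, found in 20.2% of promoters. The Krt8 promoter held 1 TGGGAA (25.6% of promoters), and CCAAT (37.4%) and TGANTCA (7.81%) were in none of the 3. The windows of Krt7 and Krt18 held 21 and 17 CpG dinucleotides and that of Krt8 held 6, against a median of 7. The Epcam promoter (chr17:87635729-87636028, plus strand) held 1 GGGCGG and 2 CACCTG. These are letter matches and were not measured as binding sites.

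Values were taken from barcodes in which Malat1, a nuclear RNA, gave at least 1% of the unique molecular identifiers (UMIs, each standing for 1 captured RNA molecule). These were 1037 of 6494 kept barcodes in the control, 1568 of 15610 after photons, 1372 of 15325 after protons, 9369 of 9484 in 11-day mSGOs and 158 of 1402 in the tissue, with median depths between 3024 and 5841 UMIs and 765768 UMIs (tissue) to 31686842 UMIs (11-day) in all. The 11-day library therefore stood apart in its share of such barcodes (98.8%, against 8.95% to 16.0% in the others). Inside the set the control had a median Malat1 share of 4.83%, the photon library 6.99% and the proton library 7.59%, and its part in the results below was not tested. Any pair of libraries shared between 33 and 98 deposited barcode sequences and at most 5 in this set. Levels are given as CPM (the UMIs of a gene per 1000000 UMIs), summed over the set, and log2 ratios carry a pseudocount of 1 CPM. With 1 library per group no difference was tested. Intervals in parentheses are exact 95% intervals for counting error only. They do not cover animals, cultures or library preparation. In such sums fewer cells of a type and less RNA per cell cannot be told apart.

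Markers of other cell types were read in the same barcodes. In the 3 7-day libraries and the 11-day library the 18 immune markers summed to between 5.02 and 32.5 CPM, with 8 to 16 of them at 0 UMIs and Ptprc at 0 in every one of these libraries. The 8 endothelial markers summed to 9.85 to 19.0 CPM and the 6 fibroblast markers to 0.148 to 0.568 CPM. The 10 acinar and pro-acinar genes summed to 34.9 CPM in the control, 9.55 CPM after photons and 7.42 CPM after protons, with 7 of the 10 at 0 in each, and the 10 cycling genes to 437, 225 and 239 CPM. Both lists thus differed between the control and the irradiated libraries, and their part in the ratios of the members was not tested. In the tissue the immune list summed to 22110 CPM, the endothelial list to 2449 CPM, the acinar list to 221576 CPM and the 7 striated or granular duct genes to 8205 CPM, so acinar and granular duct markers of the gland were present.

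Krt18, the type I partner of Krt8, was the most abundant of the 4 simple keratins in the control, at 952 CPM (929 to 975). It stood at 788 CPM after photons, 879 CPM after protons, 934 CPM in 11-day mSGOs and 513 CPM in the tissue. The 3 untreated and irradiated 7-day values had intervals that did not overlap, whereas the control and the 11-day values overlapped.

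Krt7, a type II keratin of ducts, reached 854 CPM (833 to 877) in the control, 1017 CPM after photons and 1034 CPM after protons. It was 1056 CPM in 11-day mSGOs and 82.3 CPM (63.2 to 105) in the tissue. The irradiated and 11-day libraries were thus above the control, and photons and protons overlapped.

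Krt8, the type II keratin that appears first in simple epithelia, was counted at 178 CPM (168 to 188) in the control, 130 CPM after photons, 141 CPM after protons, 232 CPM in 11-day mSGOs and 151 CPM (125 to 182) in the tissue. The tissue overlapped with each 7-day library, and the 11-day library stood above all 7-day libraries. Mouse has a Krt8 pseudogene, and reads shared with it could not be told apart in these counts. Krt19, a small type I keratin without the tail domain of its relatives, was the scarcest member, with 40.2 CPM (35.6 to 45.3) in the control, 43.6 CPM after photons, 59.0 CPM after protons and 48.6 CPM in 11-day mSGOs. In the tissue it rested on 1 UMI (1.31 CPM, 0.0331 to 7.28).

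Epcam was found at 843 CPM (822 to 866) in the control, 753 CPM after photons, 762 CPM after protons, 1281 CPM in 11-day mSGOs and 362 CPM in the tissue. In the control the order was Krt18, Krt7, Epcam, Krt8 and Krt19, and Krt7 and Epcam did not differ beyond their intervals. After both irradiations Krt7 came first and Krt18 second, and after photons the intervals of Krt18 and Epcam overlapped. Epcam led at 11 days and Krt18 led in the tissue, where Krt8 stood above Krt7. Krt19 was last in all 5 libraries. UMIs of a 3′ protocol are counted per molecule, not per length, but the capture of each transcript is unknown, so these orders compare captured molecules.

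**Figure D1:**
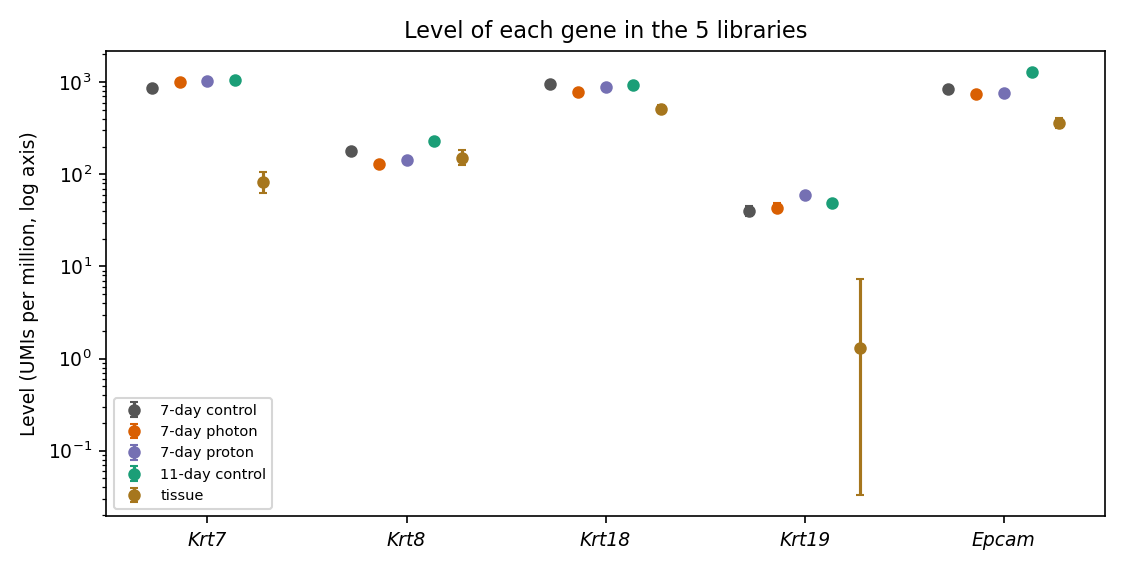
Level of Krt7, Krt8, Krt18, Krt19 and Epcam (CPM, log axis) in the 5 libraries. Points are 1 library each and bars are exact 95% Poisson intervals for counting error. Krt7 ran from 82.3 in the tissue to 1056 in 11-day mSGOs, and Krt19 in the tissue was 1 UMI.

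After irradiation the type II keratins lay on opposite sides of the control. Krt7 was higher than the control after photons, with a log2 ratio of 0.25 (0.20 to 0.30) or 1.19-fold, and after protons, with 0.28 (0.23 to 0.32) or 1.21-fold. Krt8 was lower, at −0.45 (−0.58 to −0.34) after photons and −0.33 (−0.45 to −0.21) after protons. Krt18, like its partner Krt8, was lower, at −0.27 (−0.32 to −0.22) and −0.11 (−0.16 to −0.07). Epcam was lower by a similar amount with both, at −0.16 (−0.22 to −0.11) and −0.15 (−0.20 to −0.09). Both comparisons share the control library.

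Krt19 was the member that differed most from the control after protons, at 0.54 (0.34 to 0.77), and its interval after photons spanned 0, at 0.11 (−0.11 to 0.35). It was therefore the single member past a log2 ratio of 0.5 in either comparison. Among all genes with enough UMIs, 4.28% of 4744 were that much higher after protons and 2.93% that much lower, and after photons the shares were 4.42% and 2.63% of 4792. With 5 members, 1 gene past it is not read as a result about the group. The proton value of Krt19 stayed past 0.5 in 7 of the 10 alternative settings and was 0.11 among barcodes with at least 2500 genes, while the photon value changed sign in 2. Krt8 was past −0.5 in 3 of the 10 settings after photons and in 1 after protons. The medians over the 5 members were −0.16 for photons and −0.11 for protons, beside 0.05 and 0.03 over all genes. Of all genes, 3.26% had a lower photon ratio than Krt8 and 81.1% a lower one than Krt7.

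**Figure D2:**
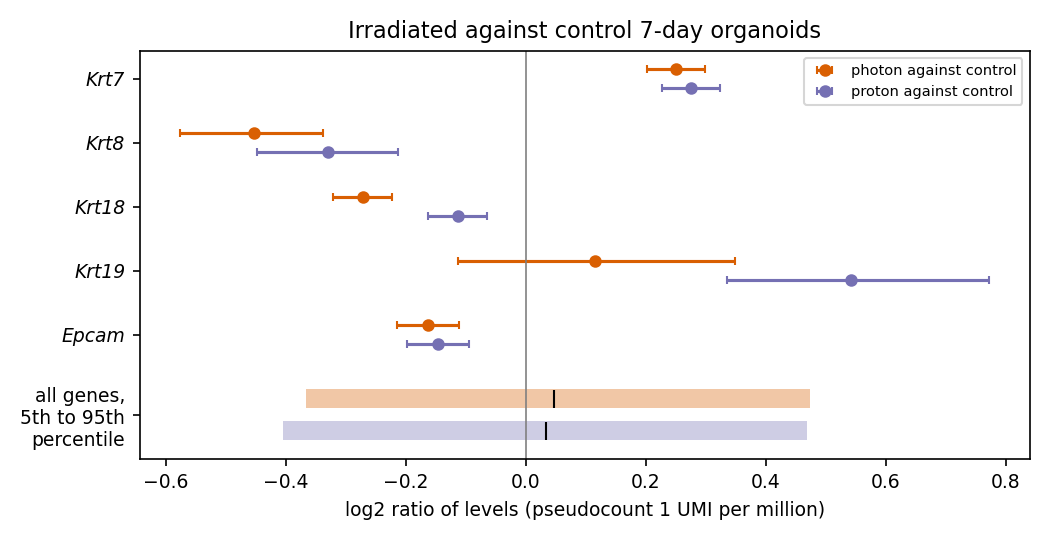
Log2 ratio of levels, irradiated against control 7-day mSGOs, for each gene (points) with conditional exact 95% intervals for counting error. The bars at the bottom span the 5th to 95th percentile of all genes, −0.37 to 0.47 for photons and −0.41 to 0.47 for protons, with the median as a tick. Krt7 lies right of 0 and Krt8, Krt18 and Epcam lie left of 0 for both irradiations.

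The ratios of Krt7 were above 0 and those of Krt8 below 0 when barcodes were compared within ranges of UMIs. Among barcodes of 500 to 2000, 2000 to 8000 and at least 8000 UMIs, the Krt7 ratio was 0.25, 0.39 and 0.22 after photons and 0.16, 0.33 and 0.29 after protons. The Krt8 ratio was −0.49, −0.17 and −0.62 after photons and −0.63, −0.08 and −0.44 after protons. In the lowest range every interval of these ratios included 0, as did those of Krt8 in the middle range. Krt18 was at −0.06 (−0.34 to 0.22), −0.11 (−0.19 to −0.03) and −0.38 (−0.45 to −0.31) after photons. After protons it was at −0.02 (−0.32 to 0.29), 0.03 (−0.05 to 0.10) and −0.20 (−0.27 to −0.14), so only the highest range excluded 0. In the barcodes with a Malat1 share below 1%, a set chosen after seeing the data, Krt7 was again higher (0.31 and 0.34) and Krt8 (−0.41 and −0.38) and Krt18 (−0.42 and −0.26) again lower. Epcam was at −0.071 (−0.11 to −0.028) after photons there, and its interval after protons included 0, at −0.027 (−0.071 to 0.016).

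The ratio of 2 genes within a library does not depend on how libraries are scaled. For each Krt8 UMI there were 4.81 Krt7 UMIs (4.52 to 5.12) in the control, 7.85 (7.37 to 8.37) after photons and 7.32 (6.88 to 7.79) after protons. The same ratio was 4.55 (4.44 to 4.67) in 11-day mSGOs, overlapping with the control, and 0.543 (0.393 to 0.744) in the tissue, the one library in which Krt8 outnumbered Krt7. In barcodes with a Malat1 share below 1% it was 3.78 in the control and 6.23 and 6.24 after photons and protons. In both sets of barcodes the irradiated libraries carried more Krt7 molecules per Krt8 molecule than the control, with intervals apart.

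The ratio of Krt18 to Krt8, the pair of early simple epithelia, spanned a narrower range. It was 5.35 (5.03 to 5.70) in the control, 6.08 after photons, 6.22 after protons, 4.03 in 11-day mSGOs and 3.39 (2.75 to 4.20) in the tissue. In barcodes with a Malat1 share below 1% the control (6.14, 5.86 to 6.44) and photon (6.13, 5.89 to 6.38) values overlapped, with 6.67 (6.41 to 6.93) after protons. For each Krt18 UMI there were 0.898 Krt7 UMIs in the control, 1.29 after photons, 1.18 after protons, 1.13 in 11-day mSGOs and 0.160 in the tissue. Summed by type, the simple keratins gave 1.04 type II UMIs per type I UMI in the control, 1.38 after photons, 1.25 after protons, 1.31 in 11-day mSGOs and 0.454 in the tissue. With the 4 basal keratins and Krt6a, Krt6b and Krt16 added, the control instead stood highest, at 0.572 type II UMIs per type I UMI (0.565 to 0.580). The photon library had 0.549 (0.543 to 0.555), the proton library 0.485 (0.479 to 0.491), 11-day mSGOs 0.445 and the tissue 0.445. Photons thus stayed above protons, as in the sum of simple keratins. The place of the control depended on the barcodes. Below a Malat1 share of 1% it had 0.373 (0.368 to 0.377), under the photon (0.453, 0.450 to 0.457) and proton (0.399, 0.396 to 0.402) libraries. Over all kept barcodes the control (0.445) lay between photons (0.480) and protons (0.423). Epcam was level with Krt7 in the control and below it after irradiation, with 0.987 Epcam UMIs per Krt7 UMI in the control against 0.741 and 0.737.

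**Figure D3:**
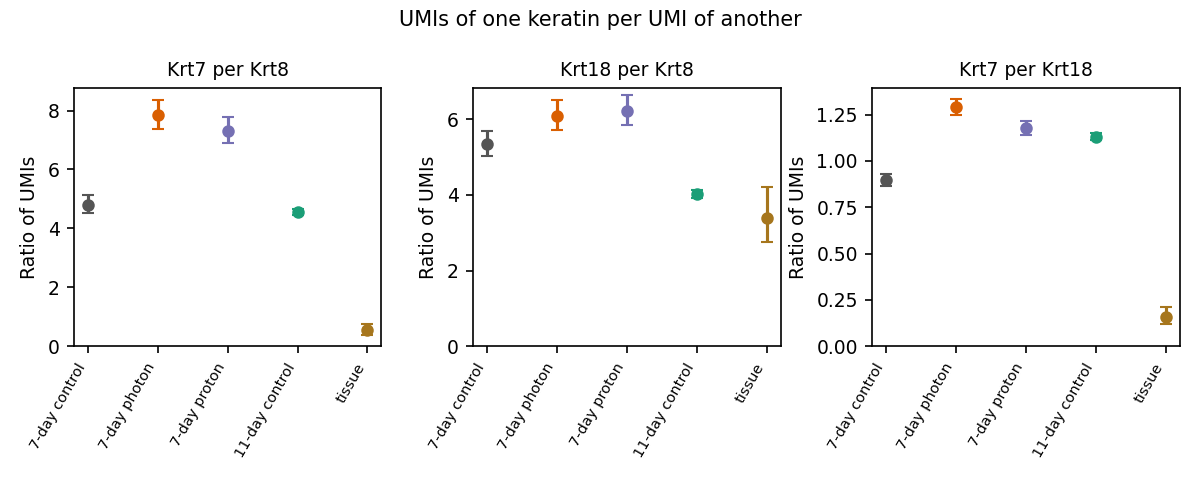
UMIs of one keratin per UMI of another in each library, with exact 95% intervals for counting error (linear axes from 0). Krt7 per Krt8 was 4.81 in the control, 7.85 and 7.32 after photons and protons and 0.543 in the tissue.

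Photons and protons were compared with each other at the same dose of 7 Gy and the same day. After protons Krt19 was higher by 0.43 (0.24 to 0.63) and Krt18 by 0.16 (0.11 to 0.21), and Krt8 by 0.12 (0.01 to 0.25). Krt7 differed by 0.02 (−0.02 to 0.07) and Epcam by 0.02 (−0.03 to 0.07). No member passed 0.5, as 0.961% of 4788 genes did upwards and 1.5% downwards.

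Genes that work with the members were taken from fixed lists. Of the 9 partners and relatives of Epcam, all of which had enough UMIs, 0 were past 0.5 upwards and 1 was past it downwards after photons, namely the claudin Cldn3 at −0.69, and none was after protons. The next lowest after photons was Cldn4 at −0.45, and the highest were Cd44, a partner of Epcam at the membrane, at 0.16 and the protease St14 at 0.06. Of the 9 genes listed as linkers of keratin filaments, 1 was past 0.5 downwards after photons (the envelope protein Evpl, −0.59) and 2 after protons (Eppk1, −0.81, and Evpl, −0.51). Their median ratios were −0.22 and −0.36. Of 15 epithelial transcription factors 9 had enough UMIs, and of these Grhl1 alone was past 0.5, at −0.75 after photons and −0.57 after protons.

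The other keratins differed among themselves. Of the 4 basal keratins Krt15 was higher, at 0.98 after photons and 0.88 after protons, while Krt14 was at −0.08 and −0.02. Of 10 stratified and stress keratins 7 had enough UMIs. Krt10, a keratin of differentiating layers, was at −1.45 and −1.46, Krt16 was at 0.52 and −0.02, and after protons Krt6b (−0.66), Krt80 (−0.63) and Krt13 (−0.57) were also past 0.5 downwards.

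The 4 simple keratins gave a small part of the keratin RNA of 7-day mSGOs. Of all keratin UMIs they made up 13.2% (12.9 to 13.4) in the control, 12.8% in the photon library and 13.9% in the proton library, beside 65.0%, 67.6% and 69.2% for the basal keratins Krt5, Krt14, Krt15 and Krt17. In 11-day mSGOs their share was 28.0% (27.9 to 28.2) and in the tissue 88.7% (86.0 to 91.0). Keratins as a whole were 1.54% of UMIs in the control, 0.810% in 11-day mSGOs and 0.0844% in the tissue, where the 4 basal keratins rested on 15 UMIs. Krt18 alone gave 60.8% of the keratin UMIs of the tissue, Krt8 18%, Krt7 9.75% and Krt23 6.66%.

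The simple keratins summed to 2024 CPM in the control and 2270 CPM at 11 days, whereas the 4 basal keratins summed to 9995 and 5491 CPM. The basal keratins went both ways, with log2 ratios of −1.64 for Krt14, −1.03 for Krt5, −0.16 for Krt17 and 0.63 for Krt15. Over the 7 basal duct markers, which hold these 4, the median was 0.63, and 2 were past 1 downwards and 0 upwards. Krt14 made up 33.2% of keratin UMIs in the control and 20.2% at 11 days, and Krt6a, a stress keratin, 11.8% and 1.42%. Seen per barcode, after thinning to 2000 UMIs and with at least 10 keratin UMIs, the median share of simple keratins was 12.5% in the control and 25% at 11 days. Simple keratins were over 50% of keratin UMIs in 6 of 845 control barcodes (0.71%, 0.261 to 1.54), in 7 of 1180 after photons and 8 of 1131 after protons. This was so in 670 of 6667 at 11 days (10.0%, 9.34 to 10.8) and in all 3 tissue barcodes that could be used.

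**Figure D4:**
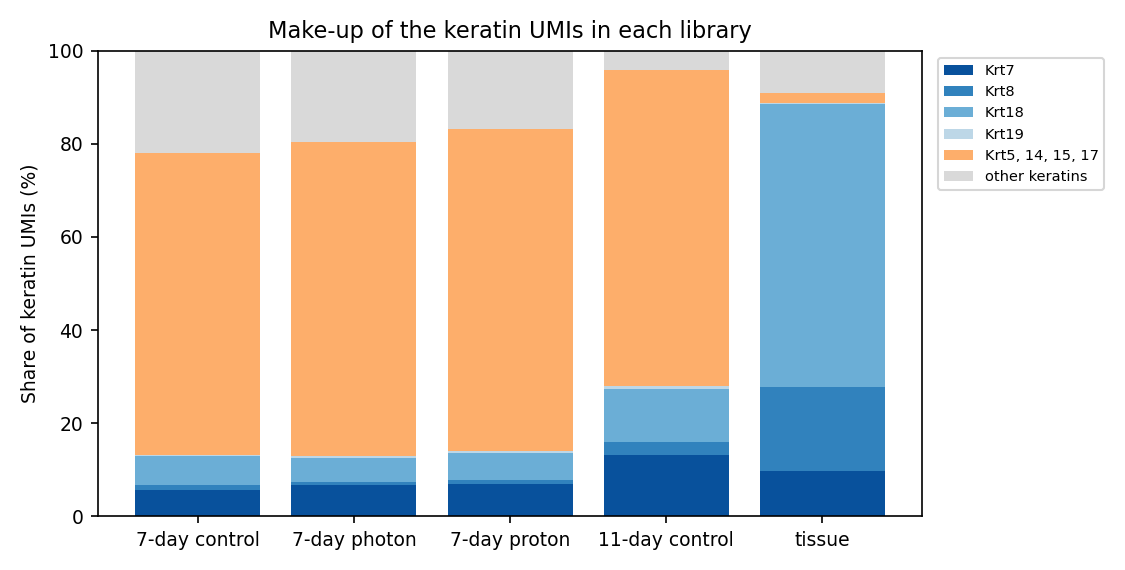
Share of all keratin UMIs (%) from each simple keratin, from the 4 basal keratins together and from the other keratins, in each library. The simple keratins (blue) are 13.2% in the control, 28.0% at 11 days and 88.7% in the tissue.

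Between 7 and 11 days the members were not past a log2 ratio of 1 in either direction, while 40.8% of 6663 genes were that much higher and 5.7% that much lower at 11 days. The ratios, over genes in both gene lists, were 0.61 (0.57 to 0.65) for Epcam, 0.39 for Krt8, 0.31 for Krt7, 0.27 (0.09 to 0.47) for Krt19 and −0.02 (−0.06 to 0.02) for Krt18. The median of all genes was 0.75, so relative to it every member lay below, from −0.14 for Epcam to −0.77 for Krt18, and with median-of-ratios scaling the median over the members was −0.39 in place of 0.31. The sign of Krt18 changed in 3 of the 10 alternative settings, that of Krt19 in 4, and those of Epcam, Krt7 and Krt8 in 1 each. Where Malat1 gave less than 1% of UMIs, Epcam (1.61), Krt19 (1.408) and Krt8 (1.10) were past 1. Day, animals, run and software version cannot be told apart here. Of the other luminal duct markers, Wfdc2 was at 1.98 and Cldn4 at −2.17, on either side of the members.

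The sum over the 158 tissue barcodes, of which 59 carried immune and 62 endothelial genes, was set against the control mSGOs. It was lower in Krt7, at −3.36 (−3.76 to −3.02), and in Epcam, at −1.22 (−1.40 to −1.05). Krt18 was at −0.89 (−1.04 to −0.74). Krt8 was at −0.23 (−0.52 to 0.04) and went both ways among the alternative settings, at 0.59 where Malat1 gave at least 2% of UMIs, −1.66 with all kept barcodes, −1.89 with at least 2500 genes and −2.12 where Malat1 gave less than 1%. Krt19, with 1 UMI against 272, was at −4.16 with an interval from −10.25 to −2.45. Of 3860 genes 29.7% were past 1 downwards and 9.4% upwards, and 3 of the 5 members were past it downwards. Epcam was past it in 7 of the 10 alternative settings, Krt18 in 5, Krt8 in 3 and Krt7 in all 10. The basal keratin Krt14 had 6 UMIs in the tissue and a ratio of −9.18 (−10.80 to −8.23), and Krt5 had 2 UMIs, with an interval of −12.69 to −7.79.

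In the tissue the members were carried by few barcodes. Among 59 barcodes with UMIs of at least 3 immune genes (median 5280 UMIs) Krt18 was at 259 CPM and found in 25.4% (14.98 to 38.4), and among 62 with at least 3 endothelial genes (median 3298 UMIs) it was at 51.1 CPM and found in 16.1% (8.02 to 27.7). Among the 37 others (median 3196 UMIs) Krt18 was at 1443 CPM and found in 54.1% (36.9 to 70.5), Epcam at 904 CPM, Krt8 at 450 CPM and Krt7 at 193 CPM. In the endothelial class they were spread thinly, with 11 Krt18 UMIs in 10 barcodes and 8 Epcam UMIs in 7. In the immune class they were concentrated, with 90 Krt18 UMIs in 15 barcodes and 86 Epcam UMIs in 8, and whether this class holds doublets was not tested. The shares of Epcam (56.8%, 39.5 to 72.9) and Krt8 (43.2%, 27.1 to 60.5) in the 37 barcodes lay above those of the endothelial class (11.3%, 4.66 to 21.9, and 6.45%, 1.79 to 15.7), as did those of Krt18 and Krt7. They also lay above those of the immune class for Epcam (13.6%, 6.04 to 24.98) and Krt8 (11.9%, 4.91 to 22.9), whereas Krt18 (54.1%, 36.9 to 70.5, against 25.4%, 14.98 to 38.4) and Krt7 (32.4%, 18.01 to 49.8, against 16.9%, 8.44 to 29.0) overlapped with it. By level, Krt18, Epcam, Krt8 and Krt7 were all higher in the 37 barcodes than in either class, with intervals apart. The 292 Krt18 UMIs of the 37 came from 20 barcodes. Intervals of levels treat UMIs as independent and do not cover such clustering. Krt19 was found in 1 of the 37 and in 0 of the others. Set beside the control, a comparison chosen after seeing the data, the 37 barcodes were higher in Krt18 (1443 CPM, 1282 to 1618, against 952) and Krt8 (450 CPM, 362 to 552, against 178), overlapped in Epcam (904 CPM, 778 to 1045, against 843) and were lower in Krt7 (193 CPM, 137 to 263, against 854). By detection without thinning the 37 barcodes were below the control in Krt18 (54.1% against 85.2%, 82.9 to 87.4) and Epcam (56.8% against 84.4%, 82.0 to 86.5), at a median depth of 3196 against 5841 UMIs, and below the 11-day mSGOs (82.9% and 93.1%), whose median depth was 3024 UMIs. Level and detection thus gave opposite orders for Krt18. For Epcam detection was below the control while the levels overlapped. Against 11-day mSGOs both its detection and its level (904 against 1281 CPM) were lower.

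To compare shares of barcodes, each barcode was thinned to 1000 UMIs and shallower ones were left out, with 1 fixed random seed, which removed 38 of the control, 69 of the photon, 31 of the proton, 135 of the 11-day and 1 of the tissue barcodes. Krt18 was then found in 53.4% of 999 control barcodes, Krt7 in 47.4%, Epcam in 45.4%, Krt8 in 15.4% and Krt19 in 3.30%. Before thinning these shares were 85.2%, 84.1%, 84.4%, 47.2% and 10.8%. Krt7 was found in 56.2% after photons and 53.9% after protons, with both intervals above that of the control. Krt8 was in 10.9% after photons, below the control, and in 11.6% after protons, where the intervals overlapped. For the other members the intervals overlapped with the control after both irradiations, with Epcam in 40.8% and 40.3%, Krt18 in 51.4% and 53.5% and Krt19 in 3.6% and 5.22%. In 11-day mSGOs Epcam was in 68.1%, Krt7 in 59.8%, Krt18 in 52.8%, Krt8 in 17.4% and Krt19 in 2.91%. No background share was set for the mSGO libraries, and the part of free RNA in their shares was not tested. None of the 5 was found in 14.3% of control barcodes, 13.2% after photons, 12.6% after protons, 6.44% at 11 days and 75.8% in the tissue.

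Krt19 was found in fewer barcodes than Krt8 but with more UMIs where it was found, at 1.39 UMIs per detecting barcode at 11 days against 1.20 for Krt8, although Krt8 had 1926 UMIs in the thinned barcodes and Krt19 had 373. The variance of Krt19 over barcodes was 1.83 times its mean in both the control and 11-day libraries, whereas that of Krt8 was 1.09 times its mean in the control and 1.24 times at 11 days. A value of 1 is what counting alone gives.

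In the 11-day library, which had the most barcodes, Krt18 was more often found where a possible partner was found. Krt18 was in 61.2% (58.8 to 63.6) of 1610 barcodes with a Krt8 UMI and in 51.0% (49.9 to 52.1) of those without. It was in 55.5% (54.2 to 56.8) of barcodes with Krt7 and 48.7% (47.1 to 50.4) of those without, and in 54.7% with Epcam and 48.8% without. Krt7 was in 63.5% (61.1 to 65.9) with Krt8 and 59.0% (57.9 to 60.1) without. Krt14, the basal keratin, went the other way, in 62.3% (60.9 to 63.7) of barcodes with Krt18 and 72.5% (71.2 to 73.8) of those without.

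In the control the same pairs were less clear. Krt18 was in 59.7% (51.5 to 67.6) of the 154 barcodes with Krt8 and 52.2% (48.8 to 55.6) of those without, so the intervals overlapped. It was in 60.1% (55.6 to 64.6) of barcodes with Krt7 and 47.2% (42.9 to 51.6) of those without, with intervals apart. Krt7 was in 42.2% (34.3 to 50.4) with Krt8 and 48.4% (45.0 to 51.8) without. After photons Krt18 was in 58.9% with Krt8 and 50.4% without, and after protons in 59.6% and 52.7%, again with overlapping intervals. In control barcodes with a Malat1 share below 1%, chosen after seeing the data, neither difference was seen. Krt18 was there in 71.4% (66.0 to 76.3) with Krt8 and 74.6% (72.1 to 77.0) without, and in 74.3% with Krt7 and 73.4% without. In the tissue 11 of 16 barcodes with Epcam also had Krt18 (68.8%, 41.3 to 89.0), against 9.22% (5.00 to 15.3) of those without.

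**Figure D5:**
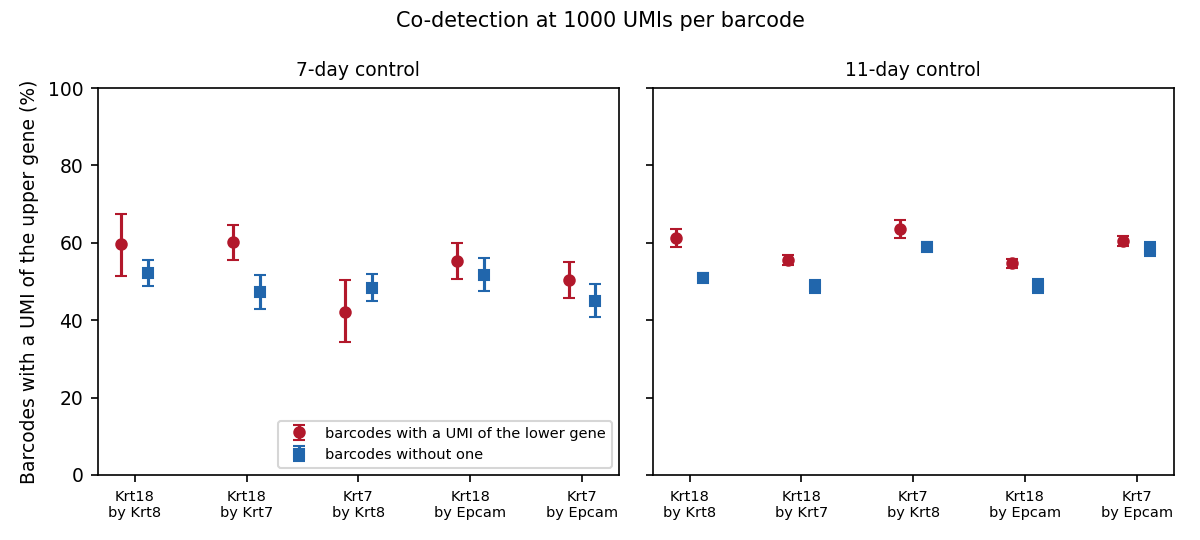
Share of barcodes (%) with a UMI of the upper gene among those with (red circles) and without (blue squares) a UMI of the lower gene, all thinned to 1000 UMIs, with Clopper-Pearson 95% intervals. At 11 days Krt18 was in 61.2% of barcodes with Krt8 and 51.0% of those without, and in the control the intervals of this pair overlapped.

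The members were also set beside the other keratins in the same barcodes, and those given here were chosen after their values were seen. At 11 days Krt18 was in 49.0% (47.7 to 50.2) of the 6198 barcodes with Krt14 and 60.5% (58.8 to 62.3) of the 3036 without, and Krt8 in 15.6% and 21.1%. For Krt18 with and without the other basal keratins the shares were 51.3% and 54.8% for Krt5, with intervals apart, and 53.3% and 52.5% for Krt15 and 52.5% and 53.7% for Krt17, with overlapping intervals. The control did not show this order. There Krt18 was in 53.8% (50.5 to 57.0) of the 954 barcodes with Krt14 and 44.4% (29.6 to 60.003) of the 45 without, with overlapping intervals. It was more often found with the basal keratins Krt5 (56.0%, 52.5 to 59.5, against 43.4%, 36.6 to 50.4) and Krt17 (56.0%, 52.4 to 59.6, against 45.3%, 39.0 to 51.8), while with and without Krt15, the remaining basal keratin, its shares were 53.8% and 53.2%. With Krt13 it was less often found (44.4%, 38.3 to 50.7, against 56.5%, 52.8 to 60.1). After photons Krt18 was again more often found with Krt17 (53.5%, 50.7 to 56.4, against 42.5%, 36.8 to 48.4). Its shares with and without Krt5 (52.3% and 47.3%) and Krt13 (49.1% and 52.1%) had overlapping intervals there. Krt19 was in 10.7% (7.15 to 15.1) of 11-day barcodes with Krt13, a keratin of stratified mucosa, against 2.69% (2.37 to 3.05) without, and in 8.41% (6.05 to 11.3) with Krt6a against 2.62% (2.30 to 2.98). In the control Krt19 was in 3.34% with Krt6a and 3.26% without. It was more often found with Krt10 there, in 10.6% (5.22 to 18.7) of 94 barcodes with it and 2.54% (1.62 to 3.79) of those without, while with and without Krt13 its shares were 3.86% and 3.11%, with overlapping intervals. For Krt19 with and without Krt10 the intervals overlapped after both irradiations and at 11 days. Krt19 was in 7.23% with Krt10 and 5.09% without after protons and in 3.70% and 2.89% at 11 days, the order of the control, and in 2.04% and 3.71% after photons, the reverse order.

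Likeness was measured as the Pearson correlation of log-scaled UMIs over the 9369 11-day barcodes, among 7115 genes found in at least 5% of them, as a description with no test. These barcodes share 1 library, and depth differs among them. For Krt8 the 5 closest genes were Krt18 (0.22), the Epcam partner Cldn7 (0.19), Anxa1 (0.19), Mal (0.19) and Ecm1 (0.18). In the control they had 0.26, 0.18, 0.10, 0.097 and 0.081. For Epcam they were Wfdc2 (0.26), Ifitm3 (0.22), Krt18 (0.22), Hsp90ab1 (0.21) and Tmem176b (0.20), with 0.20, 0.21, 0.13, −0.02 and 0.14 in the control. For Krt19 they were Krt13 (0.14), Krt23 (0.14), Ecm1 (0.14), Krt6a (0.13) and Anxa1 (0.12), with 0.08, 0.03, 0.16, 0.07 and 0.13 in the control. All of these values are weak. Between members the highest value at 11 days was that of Krt8 with Krt18, and Krt19 had at most 0.08 with any other member.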

How the data were processed

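Raw UMI counts per gene and barcode (10x Genomics 3′ chemistry) were what the authors deposited, 1 matrix a library. The submitters' processing notes name Cell Ranger 5 and mm10, the file headers name software 3.0.1 (7-day and tissue) and 7.0.0 (11-day), and the study's methods name GRCm39, so the build used for counting is not settled and coordinates are positions in RefSeq GRCm38.p6. Barcodes had at least 200 genes and at most 5% mitochondrial UMIs, and the highest Scrublet scores (scanpy 1.11.5) up to 0.8% per 1000 barcodes were removed as doublets in every library (378, 2674, 2559, 855 and 16 for control, photon, proton, 11-day and tissue). The caller's automatic threshold would have marked between 0% and 10.1% of barcodes and was not used. The study's minimum of 2500 genes would keep 193, 245, 218, 637 and 25 barcodes and was run as an alternative. Genes entered a comparison with at least 200 UMIs in both libraries together and 20 CPM in the higher one. Thinning drew 1000 (or 2000) UMIs per barcode without replacement with random seed 1. Ratios past 0.5 (irradiation) or 1 (day 11, tissue) on the log2 scale were counted. Alternatives changed the barcode filters, the scaling, the thinning and the averaging. Intervals were exact Poisson, conditional binomial or Clopper-Pearson at 95%, from scipy 1.17.1, and the scripts were tested on simulated data. Genes outside the 5 were named from fixed lists (the 2 highest and 2 lowest ratios, and those past the threshold where 5 or fewer were), as keratins with at least 1% of keratin UMIs, or as the 5 closest to Krt8, Krt19 and Epcam. The members and lists were chosen with earlier results of these data known. No barcode annotation was used.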

Additional observations from a re-analysis of the deposited data

How the results depend on the processing

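No paired analysis was possible because each group held 1 library, and for the same reason no library could be left out. Each ratio was recomputed under 10 alternatives, of which the set of barcodes with a Malat1 share below 1% was chosen after seeing the data. In all 10, the ratio of Krt7 was above 0 and those of Krt8, Krt18 and Epcam below 0 after both irradiations, although the interval of Epcam after protons included 0 where Malat1 gave under 1% (−0.027, −0.071 to 0.016). They were 0.15 to 0.33 for Krt7 and −0.78 to −0.34 for Krt8 after photons, and 0.25 to 0.34 and −0.50 to −0.28 after protons. Krt18 spanned −0.42 to −0.20 and −0.26 to −0.066, and Epcam −0.23 to −0.071 and −0.18 to −0.027. The median over the members has no interval of its own and was set against the counting interval of its middle gene in the main setting. It moved beyond that interval in the following cases, and the cause was not tested. For photons (−0.16) it was −0.082 where Malat1 gave at least 2% of UMIs, −0.40 with at least 2500 genes, −0.23 with median-of-ratios scaling and −0.071 with a Malat1 share below 1%. For protons (−0.11) it was −0.054 where Malat1 gave at least 2% and −0.027 below 1%. For day 11 against day 7 (0.31) it was 0.19 with all kept barcodes, 0.52 with at least 2500 genes, −0.39 with median-of-ratios scaling, 0.26 after thinning and 1.10 with a Malat1 share below 1%. For tissue (−1.22) it was −2.38 with all kept barcodes, −0.73 where Malat1 gave at least 2%, −1.89 with at least 2500 genes, −0.92 with up to 10% mitochondrial UMIs (added barcodes were not scored for doublets), −1.43 with median-of-ratios scaling, −1.53 with the mean of CPM per barcode and −2.63 with a Malat1 share below 1%. The share of Krt8 barcodes with Krt18 in the control (59.7%) was 70.6% with all kept barcodes, 51.2% where Malat1 gave at least 2%, 71.4% below 1% (where it was 74.6% in barcodes without Krt8, so the order turned), 83.6% after thinning to 2000 UMIs and 93.9% without thinning. At 11 days (61.2%) it was 71.9% with at least 2500 genes, 74.3% with a Malat1 share below 1%, 80.1% after thinning to 2000 UMIs and 88.8% without thinning, so a share holds only at its depth. The expected value over all draws of 1000 UMIs, also chosen after seeing the data, was 62.5% in the control and 60.3% at 11 days. The simple share of keratin UMIs in the control (13.2%) was 14.2% with all kept barcodes, 16.0% with at least 2500 genes, 14.8% with a Malat1 share below 1% and 12.8% after thinning. At 11 days (28.0%) it was 32.7%, 28.4% with up to 10% mitochondrial UMIs, 29.4% and 27.5%, the first with at least 2500 genes, the third below 1% Malat1 and the last after thinning. In the tissue every share rests on at most 158 barcodes. Krt19 had 1 UMI there, and 4 UMIs among the 5932095 of all kept barcodes, so it was as scarce at the greater depth.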
